A study of Mus musculus with 8 samples.

Results

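The transcripts of 9 genes that anchor the epithelium to its basement membrane, 3 laminin chains (Lama3, Lama5 and Lamb3) and 6 integrin subunits (Itga2, Itga3, Itga6, Itgb1, Itgb4 and Itgb6), were compared between crypts of the small intestine (SI) and of the colon (COL). The genes were chosen by name, matched through their Ensembl identifiers in GENCODE vM21, and all 9 were found among the 45706 genes of the count tables. RNA-Seq was done on freshly isolated crypts, for which the labels name no treatment, from 4 wild-type C57BL/6N mice, 2 females and 2 males, whose age the labels do not give. Crypts are the pockets of the gut lining that hold its stem and progenitor cells. Both tissues were taken from every mouse, which set 4 SI libraries (SI1 to SI4) against 4 COL libraries (COL1 to COL4). Replicates 1 and 4 are the females, replicates 2 and 3 the males, and SI4 and COL4 came from the mouse labelled 5. The crypts were released with EDTA and no sorting step is described, so each library holds every cell type that came off with them, and fewer cells of a type and less RNA per cell cannot be told apart.

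Laminins are cross-shaped secreted proteins built from an alpha, a beta and a gamma chain, and they form the sheet on which epithelial cells rest. LAMA3 and LAMB3 are chains of the laminin of hemidesmosomes, while LAMA5 joins LAMB1 or LAMB2 and LAMC1 in the main laminin under the adult gut epithelium. Integrins are receptors of an alpha and a beta subunit. ITGA3 pairs with ITGB1 and ITGA6 with ITGB1 or ITGB4 to bind laminin, ITGA2 with ITGB1 to bind collagen and laminin, and ITGB6 with ITGAV to bind and activate latent TGF-beta. ITGB4 links laminin to keratin filaments through plectin, whereas the other beta subunits link to actin.

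Total counts ran from 15969428 to 32908060 per library, and levels are in CPM, counts per library size after correction with edgeR's TMM factor. The share of mitochondrial transcripts was low in SI1, SI4, COL3 and COL4 (4.83% to 7.35%). It was high in COL1, COL2, SI2 and SI3 (22.7% to 50.8%), and highest in COL2. The 754 genes whose longest transcript has at least 8000 bases deviated from their tissue's median by 0.65 (median, log2 CPM) in COL2 and 0.45 in SI2, and by -0.23 to 0.13 in the other libraries. Epithelial markers were high in both tissues, with Epcam at 391.0 to 906.1 CPM and Cdh1 at 463.1 to 839.4 CPM. The summed CPM of 6 fibroblast markers was at most 5.50 in SI and 6.78 in COL. The enterocyte gene Fabp1 was at 5019 to 10970 CPM in SI against at most 13.3 CPM in COL. SI1 had 0.63 CPM of the stem cell marker Lgr5 and 14.0 CPM of the proliferation marker Mki67, against 5.81 to 11.2 CPM and 68.5 to 178.1 CPM in the other SI libraries. Olfm4, Ascl2, Smoc2, Top2a and Ccnb1 were also lowest in SI1. Axin2 and Pcna in SI1 (18.4 and 33.3 CPM) lay just below the other SI libraries, and Mcm2 (23.6 CPM) lay among them.

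The members split into 3 patterns. Itga3 was higher in SI, by 2.42-fold. Lamb3 and Itga2 were higher in COL, by 3.84-fold and 2.81-fold. The laminin receptor subunits Itga6, Itgb1 and Itgb4, together with Itgb6, had log2 fold changes of 0.19 to 0.34 that missed the threshold and turned negative with scaling by library size alone. Lama3 and Lama5 also missed it, and varied widely among the libraries of a tissue. In edgeR's quasi-likelihood fit, 3 of the 9 members passed a Benjamini-Hochberg adjusted p of 0.05 over the 14491 genes tested, against a background of 28.4% of all genes tested, so the share of members called was close to that of genes in general. Of the members, 1 was called higher in SI (background 15.5%) and 2 higher in COL (background 12.9%). The CPM ranges of the tissues did not overlap for 2 members, Itga3 and Itga2, while they did not overlap for 33.5% of all genes tested. The members had a median log2 fold change (SI minus COL) of 0.28, against -0.09 over all genes tested.

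**Figure D1:**
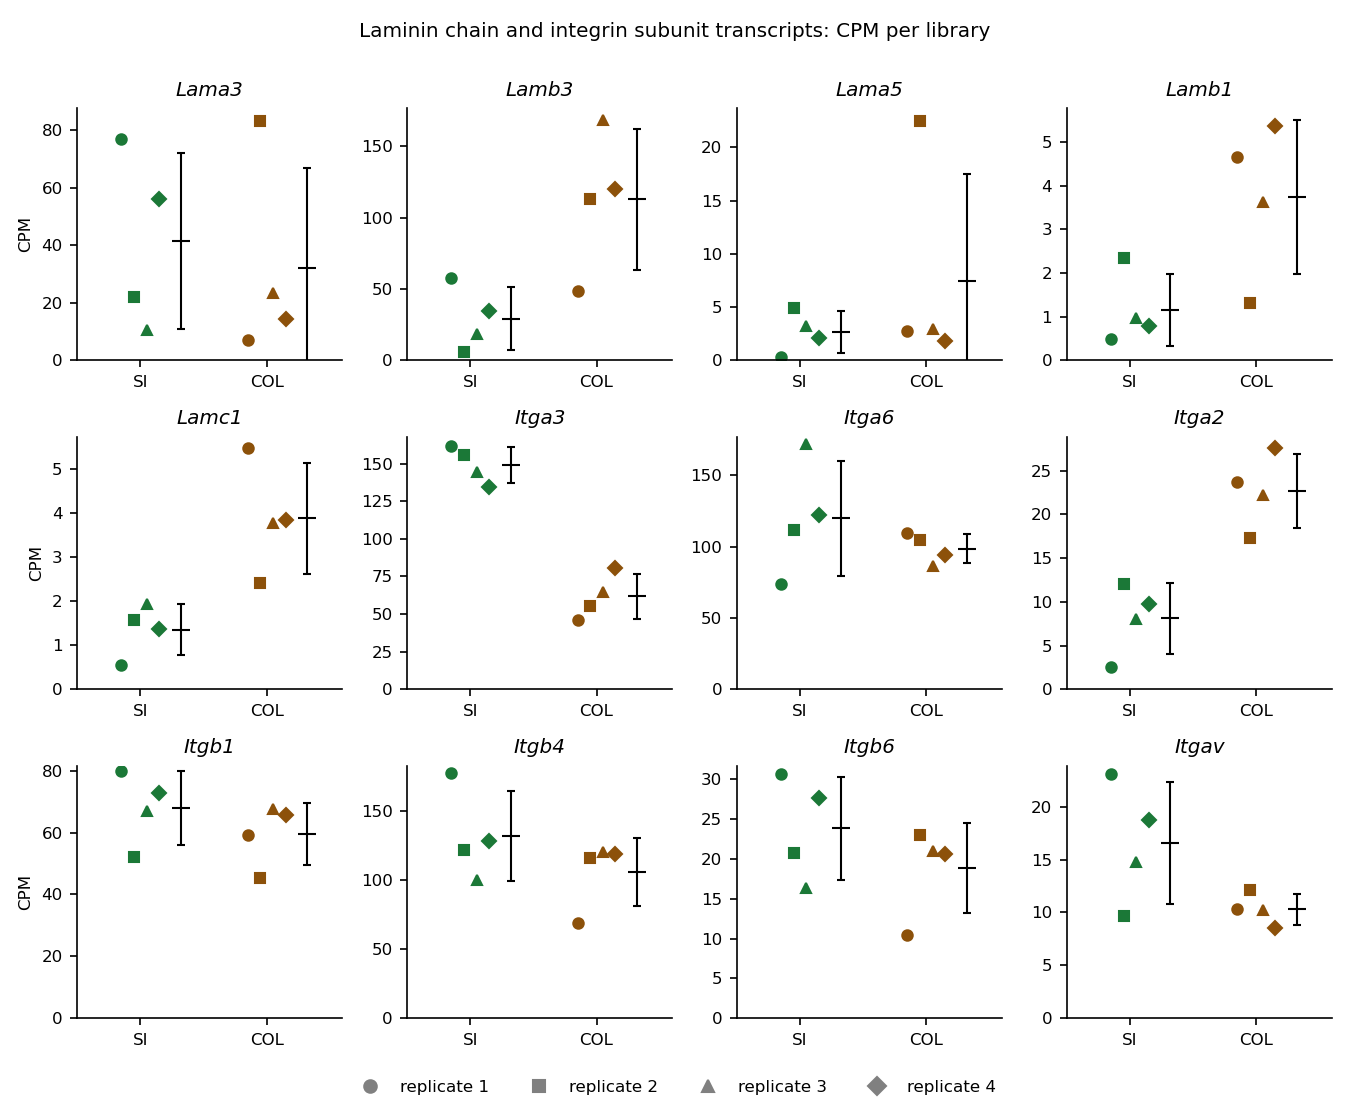
CPM (linear axis from 0) of the 9 members and of the partners Lamb1, Lamc1 and Itgav, in each of the 4 SI (green) and 4 COL (brown) libraries. Marker shapes stand for replicates (the same shape in both tissues is the same mouse), and the black bar and whiskers give the mean and SD (n = 4). Itga3 and Itga2 have no overlap between the tissues, and 1 COL library, COL2, sets the COL means of Lama3 and Lama5.

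Lamb3 (ENSMUSG00000026639), the beta chain of the hemidesmosome laminin, lies on chromosome 1 from 193207699 to 193343878 (mm10). It had 57.8, 6.04, 18.8 and 34.8 CPM in SI1 to SI4 and 48.9, 113.4, 168.7 and 120.3 CPM in COL1 to COL4. SI2, SI3 and SI4 lay below every COL library, and SI1 lay between COL1 and COL2. The mean was 29.4 ± 22.3 CPM in SI against 112.8 ± 49.2 CPM in COL (SD, n = 4). This was a log2 fold change of -1.94 (SE, the standard error, 0.59, 95% interval -3.24 to -0.64, adjusted p = 0.0298, edgeR). Leaving out COL2, COL3, COL4, SI3 or SI4 raised the adjusted p to between 0.0529 and 0.0871, with log2 fold changes from -1.98 to -1.67. Lamb3 was lower in SI in 3 of the 4 mice, the exception being the mouse of SI1 and COL1.

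Lama3, the alpha chain of the same laminin, lies on chromosome 18 from 12333819 to 12583013. It had 76.9, 22.2, 10.8 and 56.1 CPM in SI against 7.16, 83.4, 23.5 and 14.5 CPM in COL. The libraries of both tissues spanned nearly the same range, and the highest and the lowest value of the 8 were both in COL. Lama3 had a log2 fold change of 0.37 (SE 0.74, 95% interval -1.24 to 1.99, adjusted p = 0.745, edgeR). Among the libraries of high mitochondrial share the fitted log2 fold change was -1.51 (adjusted p = 0.33), and among those of low share it was 1.80 (adjusted p = 0.011, edgeR, 2 libraries per tissue). Without SI1 it was -0.07, and without COL2 it was 1.53. The longest Lama3 transcript has 10548 bases, and COL2 is the library in which long transcripts deviated upward most. The part of this in the Lama3 value of COL2 was not tested. The antisense gene Gm29200, whose exons overlap 197 bases of Lama3 exons, had at most 20 counts in any library.

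The order of Lama3 within SI, SI1 above SI4, SI2 and SI3, was that of Krt20, a keratin of differentiated gut epithelium, which had 11120, 10260, 4856 and 4778 CPM in the same order. Of the enterocyte markers, Apoa1 and Lct shared this order, while Apoa4, Alpi, Fabp1 and Sis did not. Sis was lowest in SI1 (2049 CPM) and highest in SI3 (3374 CPM). Krt20 was listed as a surface colonocyte marker, and the others of that list, Car1, Car4, Aqp8 and Slc26a3, did not share the order. Car4 was lowest in SI1 (70.3 CPM), and Aqp8 was highest there (26.1 CPM). Within COL the order differed, since COL2 was highest for Lama3 and COL3, at 1619 CPM, for Krt20. Whether the state of the epithelial cells takes part in the spread of Lama3 was not tested.

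Lama5 (chromosome 2, 180176373 to 180225859) was low apart from COL2. It had 0.32, 4.95, 3.24 and 2.11 CPM in SI against 2.73, 22.4, 2.97 and 1.82 CPM in COL, on 7 to 82 counts per SI and 87 to 361 counts per COL library. COL2 stood above all others, and the remaining COL libraries lay within the SI range. The difference in log2 was -1.49 (SE 0.90, adjusted p = 0.248, edgeR), and without COL2 it was 0.05 (adjusted p = 0.963). The longest Lama5 transcript has 11388 bases, and COL2 is the library in which long transcripts deviated upward most; the part of this in the Lama5 value was not tested.

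The beta and gamma chains that pair with LAMA5 were low and leaned toward COL. Lamb2 had 0.15 to 2.60 CPM in SI against 6.96 to 13.2 CPM in COL, a log2 fold change of -3.33 (SE 0.77, adjusted p = 0.0075, edgeR) on 3 to 43 counts per SI library. Lamc1 had 0.54 to 1.93 CPM in SI against 2.42 to 5.49 CPM in COL, a log2 fold change of -1.53 (SE 0.51, adjusted p = 0.0431, and 0.0831 with the mouse as a block). Leaving out COL1, COL3, COL4, SI1, SI2 or SI4 in turn also ended the call of Lamc1, with adjusted p-values of 0.0603 to 0.135. Lamb1 had a log2 fold change of -1.72 and an adjusted p of 0.0594 (edgeR), and it was past the threshold with DESeq2 (adjusted p = 0.0108) and limma-voom (adjusted p = 0.0339). Mesenchymal and endothelial cells also make these chains. The summed CPM of 4 endothelial markers was 0.14 to 3.57 in SI and 3.29 to 11.3 in COL, with Pecam1 called higher in COL (log2 fold change -2.71, adjusted p = 0.0248). Vwf had -2.74 and was not called (adjusted p = 0.0963, edgeR). Kdr and Cdh5 were under the filter, with means of 0.54 and 0.09 CPM in SI against 0.16 and 0.03 CPM in COL. Their SI means came from SI2 alone (2.175 and 0.36 CPM), and both genes were at 0 in SI1, SI3 and SI4. Kdr had 0.03 to 0.44 CPM in the COL libraries. The summed CPM of 5 smooth muscle markers was 2.24 to 12.3 in SI and 7.12 to 9.17 in COL. No marker of these lists was at 0 in every library, and their part in the difference was not tested.

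Itga3 (ENSMUSG00000001507) was the alpha subunit among the members that was called higher in SI. It lies on chromosome 11 from 95044474 to 95076801 and encodes a laminin receptor subunit. It had 161.9, 156.0, 144.4 and 134.7 CPM in SI against 46.1, 55.2, 64.9 and 80.8 CPM in COL. The lowest SI library, SI4, stood above the highest COL library, COL4, and the SI libraries varied little. The mean was 149.3 ± 12.1 CPM in SI against 61.8 ± 14.9 CPM in COL (SD, n = 4), a log2 fold change of 1.27 (SE 0.27, 95% interval 0.69 to 1.86, adjusted p = 0.00415, edgeR). It ranged from 1.16 to 1.44 with each library left out in turn, and each of these fits called it.

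Itga2 (ENSMUSG00000015533), the collagen-binding partner of ITGB1, lies on chromosome 13 from 114833081 to 114932100 and went the other way. It had 2.58, 12.1, 8.01 and 9.75 CPM in SI against 23.7, 17.3, 22.2 and 27.6 CPM in COL, again without overlap. The lowest value was in SI1. For Itga2 the log2 fold change was -1.49 (SE 0.41, 95% interval -2.39 to -0.59, adjusted p = 0.0187, edgeR), and it was -1.18 without SI1 (adjusted p = 0.0151). No single library ended the call when left out, and the highest adjusted p was that without SI3 (0.0496). In the fits of 2 libraries per tissue, Itga2 missed the threshold at high mitochondrial share (log2 fold change -1.11, adjusted p = 0.124) and at low share (-2.02, adjusted p = 0.0584).

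Itga6, which pairs with ITGB4 in hemidesmosomes, lies on chromosome 2 from 71745616 to 71858416. It had 73.6, 111.6, 172.0 and 122.2 CPM in SI against 109.5, 104.5, 86.5 and 94.2 CPM in COL. SI held both the highest and the lowest library, and the COL libraries lay inside that range. The log2 fold change of 0.28 (SE 0.30, 95% interval -0.37 to 0.93, adjusted p = 0.52, edgeR) did not pass the threshold. Of the 50-base stretches of the longest Itga6 transcript, 6.5% are also found in the pseudogene Gm29397, which had at most 8 counts in any library.

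The sequences around the start sites of the 3 members that differed are shown because they are the regulatory stretches nearest to the changed transcripts, from 250 bases before to 50 after a RefSeq start (GRCm38.p6), 5′ to 3′ on the gene's strand. Capitals mark GGGCGG, the GC box bound by the Sp and KLF factors, on either strand, which 35.7% of 32851 such windows hold. TGANTCA, the AP-1 motif, which reads the same on both strands and is in 7.81% of the windows, was also searched. The Lamb3 window is the first of 2 listed starts (chr1:193301744-193302043, plus strand), the Itga2 window is the listed start (chr13:114932051-114932350, minus strand) and the Itga3 window is the first of 2 (chr11:95076665-95076964, minus strand).
Lamb3: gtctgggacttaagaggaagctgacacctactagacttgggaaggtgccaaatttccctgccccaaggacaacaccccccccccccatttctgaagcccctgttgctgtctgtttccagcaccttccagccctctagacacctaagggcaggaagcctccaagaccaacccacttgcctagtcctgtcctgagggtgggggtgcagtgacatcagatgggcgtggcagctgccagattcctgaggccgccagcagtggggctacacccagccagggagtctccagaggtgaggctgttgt
Itga2: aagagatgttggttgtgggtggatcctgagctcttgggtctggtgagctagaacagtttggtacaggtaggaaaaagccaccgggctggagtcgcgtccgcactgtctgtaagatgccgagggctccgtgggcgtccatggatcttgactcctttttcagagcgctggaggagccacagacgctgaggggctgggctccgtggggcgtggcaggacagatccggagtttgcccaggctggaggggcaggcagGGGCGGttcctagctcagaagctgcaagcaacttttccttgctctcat
Itga3: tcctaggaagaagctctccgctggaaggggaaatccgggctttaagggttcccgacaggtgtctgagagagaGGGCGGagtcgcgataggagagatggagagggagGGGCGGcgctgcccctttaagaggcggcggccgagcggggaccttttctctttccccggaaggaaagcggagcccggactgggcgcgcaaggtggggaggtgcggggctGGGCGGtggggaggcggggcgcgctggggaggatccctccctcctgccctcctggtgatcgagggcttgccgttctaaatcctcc
The Itga3 window holds 3 GC boxes, the Itga2 window 1 and the Lamb3 window 0, and TGANTCA was found in 0 of the 3. Their GC content was 66.7%, 59.3% and 59.3% for Itga3, Itga2 and Lamb3. A match of letters is a description of the sequence, and nothing in these data measures binding.

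The beta subunits did not pass the threshold. Itgb1, the common partner of the alpha subunits (chromosome 8, 128685654 to 128733200), had 79.9, 52.0, 67.0 and 72.9 CPM in SI against 59.2, 45.3, 67.5 and 65.7 CPM in COL. The tissues overlapped, and the lowest value in each was that of replicate 2. Itgb1 had a log2 fold change of 0.19 (SE 0.25, 95% interval -0.35 to 0.74, adjusted p = 0.607, edgeR). This interval is the narrowest among the members.

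Itgb4, the hemidesmosome subunit (chromosome 11, 115974709 to 116008412), had 177.7, 122.0, 100.1 and 128.7 CPM in SI against 69.1, 116.0, 120.7 and 119.0 CPM in COL. SI1 was the highest and COL1 the lowest library, both from the same mouse, and the other 6 libraries lay between 100.1 and 128.7 CPM. The estimate for Itgb4 was 0.32 in log2 (SE 0.30, 95% interval -0.33 to 0.96, adjusted p = 0.464, edgeR). The lincRNA B230344G16Rik, whose exons overlap 537 bases of Itgb4 exons on the opposite strand, had at most 14 counts in any library.

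Itgb6 (chromosome 2, 60598292 to 60722643), the TGF-beta activating subunit, had 30.7, 20.7, 16.4 and 27.6 CPM in SI against 10.5, 23.1, 21.1 and 20.7 CPM in COL. The ranges overlapped, with COL1 lowest. Itgb6 had an estimate of 0.34 in log2 (SE 0.31, 95% interval -0.35 to 1.03, adjusted p = 0.451, edgeR). Its partner Itgav had 9.67 to 23.2 CPM in SI against 8.48 to 12.1 CPM in COL, a log2 fold change of 0.69 with an adjusted p of 0.12 (edgeR). The adjusted p of Itgav was 0.0403 without SI2, and 0.111 to 0.282 with any other single library left out.

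**Figure D2:**
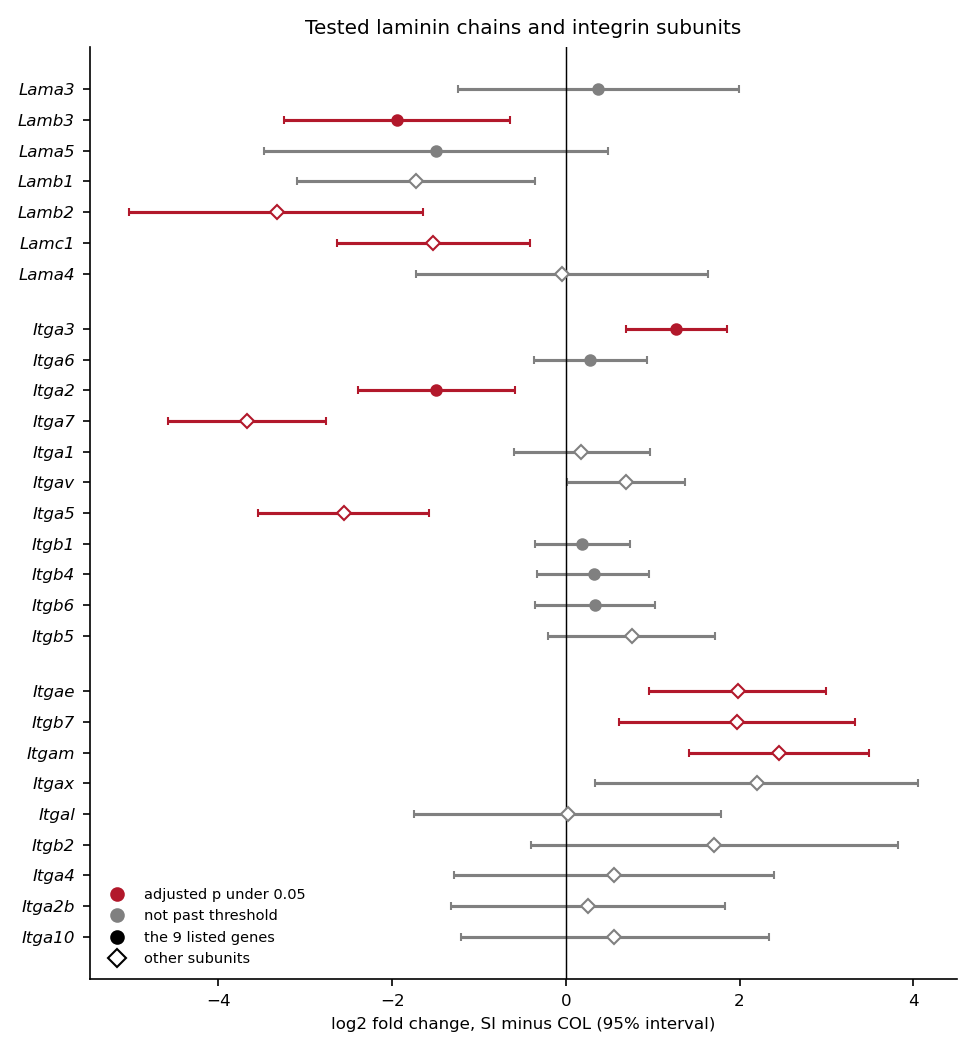
Log2 fold change (SI minus COL, x axis) with its 95% interval for laminin chains and integrin subunits that passed the low-count filter, from edgeR's quasi-likelihood fit on 4 SI and 4 COL libraries. Filled circles are members and open diamonds other subunits, red where the adjusted p is under 0.05. Among the members, Itga3 lies to the right of 0 at 1.27 and Lamb3 and Itga2 to the left at -1.94 and -1.49, while Itga6, Itgb1, Itgb4 and Itgb6 lie between 0.19 and 0.34 (below 0 with library size alone).

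The directions depend in part on the scaling. TMM factors were 0.73 to 0.80 in SI and 1.01 to 1.45 in COL, and with library size alone the median over all genes tested was -0.82 in log2, a shift of -0.73. The calls over all genes then split into 1115 higher in SI and 4788 higher in COL, against 2253 and 1863 with TMM. Under that scaling Itga3 was 0.51 (adjusted p = 0.19), and Lama3, Itga6, Itgb1, Itgb4 and Itgb6 turned to between -0.58 and -0.21, while Lamb3 and Itga2 stayed called. Relative to the median gene of the same fit, Itga3 was 1.34 under library size and 1.36 under TMM, and Itgb1 was 0.24 and 0.28.

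Ratios of 2 transcripts within a library do not depend on the scaling. For 9 ratios, pairs of chains or subunits that pair or share a partner or a ligand were compared as counts per kb of exons, by two-sided exact permutation tests over the 70 assignments of the 8 libraries, and 8 of these ratios are reported. Itga2 relative to Itga6 was 0.0448, 0.137, 0.0591 and 0.101 in SI1 to SI4 and 0.274, 0.210, 0.325 and 0.371 in COL1 to COL4. All 4 SI ratios were below all 4 COL ratios, with a log2 difference of -1.89 (exact permutation p = 0.0286, the smallest this design allows, adjusted p = 0.171 over the 9 ratios).

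Itga6 relative to Itga3 was 0.29 to 0.75 in SI and 0.74 to 1.5 in COL, a log2 difference of -1.08 (exact permutation p = 0.0571, adjusted p = 0.171). The same sign was found within each of the 4 mice. Lamb3 relative to Lama3 was 1.22, 0.44, 2.84 and 1.01 in SI and 11.1, 2.21, 11.7 and 13.5 in COL, a log2 difference of -2.82 (exact permutation p = 0.0571, adjusted p = 0.171), again with the same sign in all 4 mice. The SI ratios lay on both sides of 1, and those of COL1, COL3 and COL4 between 11.1 and 13.5.

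Both ratios that hold Itgb4 overlapped between the tissues. Itgb4 relative to Itgb1 was 0.87 to 1.37 in SI and 0.68 to 1.49 in COL (log2 difference 0.13, exact permutation p = 0.686), and Itga6 relative to Itgb4 was 0.32 to 1.34 in SI and 0.56 to 1.23 in COL (log2 difference -0.10, exact permutation p = 0.971). Itgb6 relative to Itgb1 or Itgav and Lama3 relative to Lama5 had exact permutation p-values of 0.314 to 0.714. In the test over the 8 libraries, which ignores the mouse, none of the 9 ratios passed 0.05 after Benjamini-Hochberg adjustment. Before adjustment 1 was under 0.05 in that test. With a smallest possible p of 0.0286, a ratio could pass only if most of the 9 separated the tissues completely. The adjusted values therefore cannot decide whether single ratios differ.

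**Figure D3:**
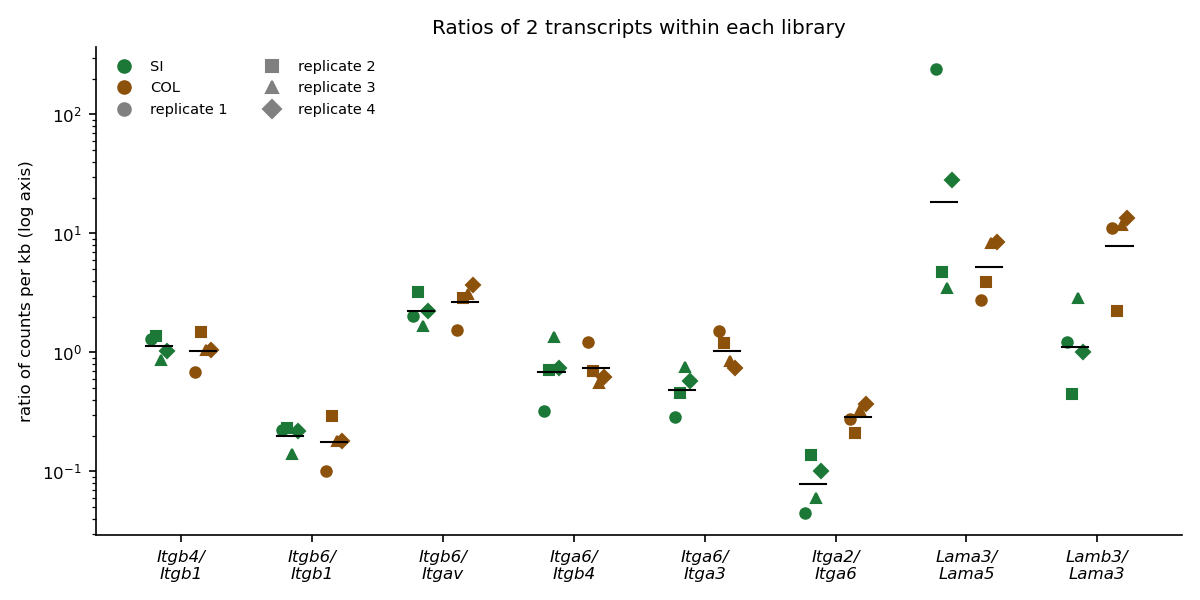
Ratio of counts per kb of exons of 2 transcripts within each library (log axis), for 8 pairs, with 4 SI (green) and 4 COL (brown) libraries each; the short black lines are geometric means and the shapes are replicates. Itga2/Itga6 separates the tissues without overlap (0.0448 to 0.137 in SI and 0.210 to 0.371 in COL), and Itgb4/Itgb1 lies around 1 in both.

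Per kb of exons, the order of levels also differed between the tissues. In SI the highest mean was that of Itga3 (26.1 ± 2.12 CPM per kb, SD, n = 4), followed by Itgb4 (18.8 ± 4.67), Itgb1 (16.7 ± 2.91) and Itga6 (13.3 ± 4.50), and the ranges of each neighbouring pair overlapped. Lamb3 (4.44 ± 3.38), Lama3 (3.86 ± 2.84) and Itgb6 (3.36 ± 0.91) followed with overlapping ranges, then Itga2 (1.14 ± 0.57) and, lowest, Lama5 (0.23 ± 0.17). In COL the highest mean was that of Lamb3 (17.1 ± 7.44 CPM per kb), and its range overlapped those of Itgb4 (15.1 ± 3.53), Itgb1 (14.6 ± 2.47), Itga6 (10.9 ± 1.14) and Itga3 (10.8 ± 2.60). Lower means were those of Itga2 (3.19 ± 0.59), Lama3 (2.99 ± 3.24) and Itgb6 (2.65 ± 0.80), whose ranges overlapped, with COL2 taking Lama3 up to 7.76 and so above the lowest Lamb3 library, and Lama5 (0.66 ± 0.88). Lamb3 thus ranked 5 among the members in SI and 1 in COL, and Itga3 ranked 1 in SI and 5 in COL. These levels depend on the length used. With the longest transcript in place of the union of exons, Itga6 rose to 27.8 CPM per kb in SI and 22.9 in COL, rank 2 in both.

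The difference between SI and COL within each mouse had a different sign in the females and the males for Lama3 and Itgb6. For Lama3 the log2 difference, with 0.1 CPM added to each value, was 3.41 and 1.95 in the female mice (replicates 1 and 4) and -1.91 and -1.12 in the male mice (replicates 2 and 3). For Itgb6 it was 1.54 and 0.42 in the females and -0.15 and -0.36 in the males. An edgeR fit with a sex by tissue interaction, without a mouse term, gave the term as male minus female. This term was -4.32 for Lama3 (SE 0.91, unadjusted p = 0.000816, adjusted p = 0.909) and -1.15 for Itgb6 (SE 0.59, unadjusted p = 0.0776, adjusted p = 0.909). For Lamb3 it was -2.63 (SE 0.88, unadjusted p = 0.0137, adjusted p = 0.909), from log2 fold changes of -0.87 in females and -3.5 in males. None of these terms passed the threshold over all genes. The interaction called 0% of all genes tested (0 of 14491), with 761 at an unadjusted p under 0.05. In SI the female libraries are also those of low mitochondrial share, so sex and that share cannot be told apart there.

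**Figure D4:**
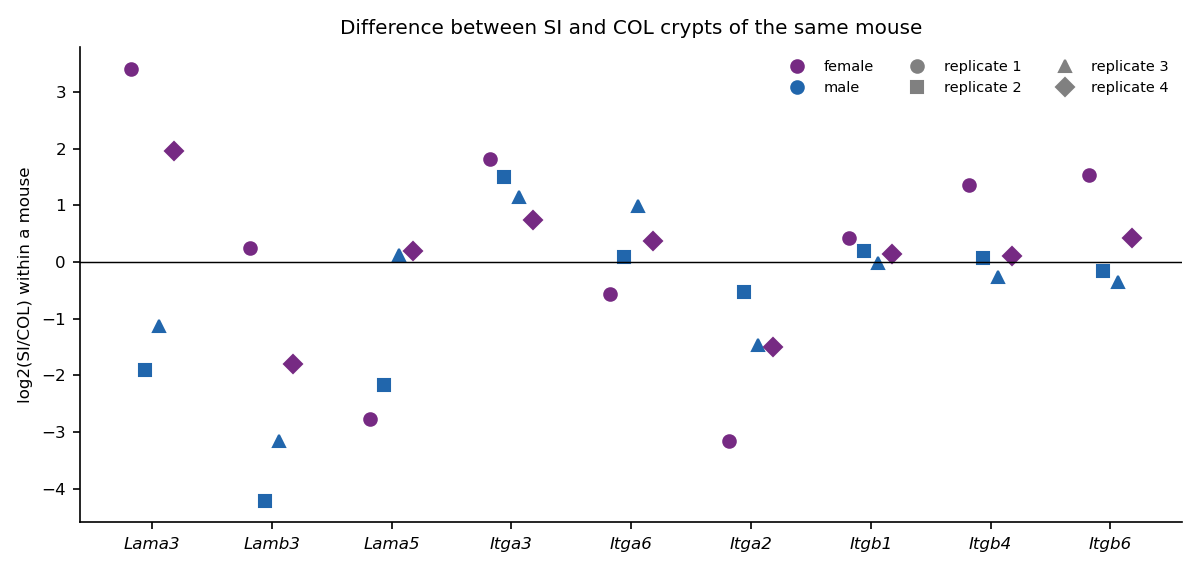
Log2 ratio of SI to COL CPM (0.1 CPM added) within each of the 4 mice for the members; shapes are replicates, purple marks females and blue males. Itga3 is above 0 and Itga2 is below 0 in all 4 mice, whereas Lama3 spans 3.41 to -1.91.

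Lama3, Itgb4 and Itgb6 were positively correlated across the 8 libraries, which come from 4 mice and share depth and RNA quality by library; these pairs were picked after their values were seen. On log2 CPM, Pearson's r was 0.96 between Itgb4 and Itgb6 (Spearman's rho 0.83, and r = 0.87 without SI1 and COL1) and 0.87 between Lama3 and Itgb6 (rho 0.93, and r = 0.91 without SI1 and COL2). Between Lama3 and Itgb4 it was lower, at 0.77 (rho 0.62, and r = 0.82 without SI1 and COL2). After each tissue's mean was subtracted, these were 0.95, 0.87 and 0.77. Lama5 and Itgb1 ran opposite to each other (r = -0.90, rho -0.74, and r = -0.74 without SI1 and COL2). Of the genes with a mean log2 CPM of at least 3, the most alike in pattern over the 8 libraries was Slc9a3, the apical sodium-proton exchanger, for Itgb4 (r = 0.96), Zc3h3 for Itgb6 (r = 0.99), 4930539E08Rik for Lama3 (r = 0.96) and Abl2 for Lama5 (r = 0.99). It was Herc6 for Itga3 (r = 0.99), Hsp90ab1, a chaperone, for Itga2 (r = 0.99), Harbi1 for Lamb3 (r = 0.96), Khdrbs1 for Itga6 (r = 0.93) and Psmd4, a proteasome subunit, for Itgb1 (r = 0.99). These correlations are a description over 8 libraries that are not independent of each other.

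Of the 20 integrin subunits outside the members, 14 were tested, and 3 were called higher in SI (background 15.5%) and 2 higher in COL (background 12.9%). The COL pair was Itga7, a laminin receptor subunit best known from muscle, and Itga5, the fibronectin receptor subunit, both partners of ITGB1. Itga7 had 0.86 to 2.18 CPM in SI against 12.6 to 27.7 CPM in COL, a log2 fold change of -3.67 (SE 0.42, adjusted p = 8.12e-05, edgeR). Itga5 had 0.82 to 3.26 CPM in SI against 11.1 to 13.9 CPM in COL, a log2 fold change of -2.56 (SE 0.45, adjusted p = 0.00139). Both were past the threshold in each alternative fit that was run.

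The 3 subunits called higher in SI are leukocyte integrins. Itgae and Itgb7, which pair in the receptor that holds T cells in the epithelium, had log2 fold changes of 1.98 (adjusted p = 0.00811) and 1.97 (adjusted p = 0.0339), and Itgam, found on myeloid cells, had 2.46 (adjusted p = 0.00255, edgeR). Itgb7 lost its call without COL1, COL2, COL3, SI1 or SI2, with adjusted p-values of 0.0564 to 0.0982, and with library size alone both Itgb7 (adjusted p = 0.165) and Itgae (adjusted p = 0.0582) missed the threshold. The summed CPM of 8 immune markers was 40.1 to 104.9 in SI and 14.2 to 40.2 in COL, and the T cell markers Cd3e and Cd8a were called higher in SI (log2 fold changes of 2.05 and 2.27, adjusted p = 0.0403 and 0.012). The part of these cells in the result was not tested.

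Of 7 other laminin chains, 4 were tested, with 2 called higher in COL (Lamb2 and Lamc1, background 12.9%) and 0 higher in SI (background 15.5%). Their median log2 fold change was -1.62. Of 23 other basement membrane components, 13 were tested, with a median of -0.19. Of these, 2 were called higher in SI (background 15.5%) and 0 higher in COL (background 12.9%). The pair was Agrn, the heparan sulfate proteoglycan agrin, with 74.8 to 109.4 CPM in SI against 20.5 to 39.3 CPM in COL (log2 fold change 1.70, SE 0.28, adjusted p = 0.00106), and Fras1, an extracellular matrix protein of epithelial basement membranes, with 4.85 to 7.46 and 0.10 to 1.12 CPM (log2 fold change 3.34, adjusted p = 0.00249). The collagen IV chain Col4a1 had at most 0.54 CPM in SI against 1.95 CPM in COL. Nid1, which was not tested, had 1.57 CPM in SI2, 0 in SI1, SI3 and SI4, and 0.06 to 0.24 CPM in COL.

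Of 8 hemidesmosome genes and other laminin receptors, 7 were tested, and the syndecan Sdc1 was the 1 called (background 28.4% in either direction). It was higher in COL, with 83.4 ± 13.4 CPM against 26.6 ± 3.27 CPM in SI (log2 fold change -1.65, SE 0.24, adjusted p = 0.000436). Plec, the plectin that ties ITGB4 to keratins, had 694.3 ± 222.3 CPM in SI against 412.1 ± 153.3 CPM in COL (SD, n = 4), with a log2 fold change of 0.75 and an adjusted p of 0.182 (edgeR). The ITGB4-associated tetraspanin Cd151 had 0.80 (adjusted p = 0.111), and Dag1 had 0.20 (adjusted p = 0.652). Dst, Sdc4 and Bcam leaned toward COL and were not called (log2 fold changes of -1.13, -1.05 and -1.46, adjusted p = 0.0736, 0.0692 and 0.107, edgeR). The median log2 fold change of this list was -1.05. Col17a1, the hemidesmosome collagen, was under the filter, with at most 1.18 CPM.

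Of 22 integrin adaptors, 18 were tested, with a median log2 fold change of -0.39. Of these, 3 were called higher in SI (background 15.5%) and 2 higher in COL (background 12.9%). The share called in either direction was close to the 28.4% of all genes tested. Zyx (1.25, adjusted p = 0.00213), Bcar1 (1.49, adjusted p = 0.00787) and Src (1.01, adjusted p = 0.0123), which act in actin-linked adhesion signalling, were higher in SI with TMM scaling, and with scaling by library size alone their log2 fold changes were 0.51, 0.72 and 0.26 and were not called. Parva (-1.91, adjusted p = 0.00834) and Lims1 (-0.85, adjusted p = 0.0157), which encode partners of integrin-linked kinase, were higher in COL. Lims1 lost its call without COL4, SI1 or SI4 (adjusted p-values of 0.052 to 0.0573). The kinase gene Ilk itself was listed at 0 in all 8 libraries; it overlaps Taf10 on the opposite strand, and no level is drawn from it.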

How the data were processed

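RNA-Seq read counts of 8 crypt libraries (4 SI, 4 COL) were analysed. For the deposited tables, the authors removed adapters and poor bases with Trimmomatic, then used STAR for alignment to mm10 and for counting per gene (versions 0.36 and 2.5.2b in the submitters' processing notes), and deposited whole-number counts without normalization. The annotation release and the strand setting are not given in the sources used here. Of 45706 identifiers, 45143 matched GENCODE vM21, an annotation of GRCm38 (mm10), which gave symbols, coordinates and exon lengths.

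Main test: edgeR 4.0.16 (R 4.3.3), quasi-likelihood, TMM, filterByExpr (about 10 counts in at least 4 libraries, 15 in all), tissue as the only term, Benjamini-Hochberg over all 14491 genes, threshold 0.05. The methods name limma without its settings; limma 3.58.1 (voom) and DESeq2 1.42.0 were alternatives. SI and COL libraries of a number come from the same mouse, as the labels state, so a fit with the mouse as a block was run; deviations from tissue means correlated at -0.24, 0.39, -0.08 and 0.33 between the libraries of each mouse. Log2 CPM used a prior count of 2. Ratios used 0.5 added to each count. The members and gene lists were chosen with earlier results of these data known. Genes named beyond the members were partners and the called genes of each list (at most 4 per direction). For each member, the gene (mean log2 CPM of at least 3) of highest correlation was also named. Plec, Cd151, Dag1, Dst, Sdc4, Bcam, Col17a1, Col4a1, Nid1, Ilk and markers were named after their values were seen. A gene and its ratio are not reported here; they stayed in the fits and in the adjustment over the ratios. The fits were tested on simulated counts. Interval and p-value precision is limited by 4 mice per tissue.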

Additional observations from a re-analysis of the deposited data

Results flagged for a closer look

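Of the values by library, 4 stood apart from the other 3 libraries of their tissue by Dixon's test at 95%, among 40 groups of 4 values examined, of which chance flags about 1 in 20. Lama5 in COL2 was 22.4 CPM, above the other COL libraries. Itgb4 in COL1 was 69.1 CPM, below the other COL libraries. The Itgb6/Itgb1 ratio per kb in SI3 was 0.14, and the Lamb3/Lama3 ratio per kb in COL2 was 2.21, both below the rest of their tissue.

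The SI to COL difference had opposite signs in the 2 female and the 2 male mice for Lama3, with an interaction term (male minus female, log2) of -4.32, and for Itgb6, with -1.15. The interaction was tested with edgeR and neither passed after adjustment over all genes (adjusted p = 0.909 for both).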

How the results depend on the processing

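The number of members called stayed between 2 and 4 of 9 over 20 alternatives (2 or 3 with each library left out in turn), and with the mouse as replicate block the same 3 were called. The block changed no call among the 9 members (Lamb3 -2.28, adjusted p = 0.0364); among the partners and called genes of the lists, Lamc1 lost its call. Over all genes, 4116 were called, 4072 with the block, 2264 with only the libraries of high mitochondrial share (2 per tissue) and 3167 to 4480 with each library left out. Scaling by library size alone turned the log2 fold changes of Lama3 (-0.21), Itga6 (-0.45), Itgb1 (-0.58), Itgb4 (-0.43) and Itgb6 (-0.38) and ended the call of Itga3. Lama3 also turned at high mitochondrial share (-1.51), and with each library left out it ranged from -0.07 (without SI1) to 1.53. Lama5 ranged from -1.95 to 0.05 (without COL2) and turned, an alternative added after seeing the data, without SI1 and COL2 (0.43); it was called with no filter on low counts (-1.52, adjusted p = 0.019) and had no value with at least 10 counts asked of every library. The sex interaction was also added after the data were seen. Other pseudocounts left 0 ratios past the threshold, which a single ratio could not pass with this test. The causes were not tested.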
